A study of Mus musculus with 12 samples.

Results

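Oxidative phosphorylation genes were followed in mouse embryonic stem (ES) cells over 6 days. They were the protein-coding genes of the count table whose symbols match a fixed rule for subunits of complexes I to V. The rule covered numbered Nduf symbols of the a, b, c, s and v series, and Sdh, Uqcr, Cox4 to Cox8 and Atp5 symbols. From the mitochondrial genome it covered the mt-Nd, mt-Co, mt-Atp and mt-Cytb symbols. Subunits with other symbols were left out, among them Cyc1 of complex III and Ndufab1 of complex I, which were listed with the electron carriers. Of 55335 genes in the table, 98 met this rule, 85 nuclear-encoded and 13 mitochondrially encoded. Of these, 96 had enough counts to be tested, and the untested genes were Cox6a2 and Cox8b. The symbol Atp5o stands for 2 gene IDs, 1 of which lies wholly within the exons of other genes, so its counts are uncertain. It still had 851 to 2123 counts a library, which may include reads also counted at the other ID. Both IDs enter the sums and the numbers of genes given below, so this gene may be counted more than once. The rule used symbols and gene types, and no measured value.

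The groups were cells at days 0, 2, 4 and 6, with 3 RNA-seq libraries each, 12 in all. All are labelled mouse ES cells and share a medium with serum replacement and the cytokine LIF, typically on gelatin with irradiated mouse embryonic fibroblasts as feeder cells. The labels name no treatment, genotype or change of medium that sets the days apart, although the series title concerns the NuRD chromatin complex. They also do not say whether the libraries of a day came from separate cultures, so each p-value reflects only how far libraries of a day differ, possibly for technical reasons.

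Oxidative phosphorylation moves electrons from NADH and succinate along complexes I to IV of the inner mitochondrial membrane to oxygen, and complex V, the ATP synthase, uses the resulting proton gradient to make ATP. Complexes I, III, IV and V combine subunits made from mitochondrial DNA inside the organelle with subunits made from nuclear genes and imported, whereas complex II is wholly nuclear-encoded. Pluripotent stem cells are known for relying heavily on glycolysis, and several complex IV subunits exist as alternative isoforms used in particular tissues or in low oxygen.

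Levels are given as CPM, counts per 1e+06 counts of a library after TMM scaling, which matches libraries on the bulk of their genes. Library totals were 6945900 to 13266962 counts. Genes were called changed at a Benjamini-Hochberg adjusted p under 0.05 in edgeR's quasi-likelihood test, fitted to all 16468 genes tested. Mitochondrial genes as a whole took 1.38 to 2.54% of counts. All 10 listed ES cell markers were detected at every day, and all 10 were lower at days 2, 4 and 6 than at day 0, with summed levels of 5636, 1898, 1031 and 839 CPM at days 0, 2, 4 and 6. Listed fibroblast markers summed to 33.9, 38.7, 61.1 and 222 CPM at these days. Of the 9 tested, 7 rose and 2 fell at day 6 against day 0, while Lum was at 0 counts at day 0 and Dcn at day 2. The part of these shifts in the results that follow was not tested, and in bulk RNA fewer cells of a type and less RNA per cell cannot be told apart.

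Near-identical sequence limits what the counts of several mitochondrial genes mean. Of the 13, 7 share a stretch of at least 100 bases and 98% identity with an annotated gene on chromosome 1, between positions 24611535 and 24616197 of GRCm38: mt-Co1, mt-Co2, mt-Co3, mt-Atp6, mt-Nd3, mt-Nd4l and mt-Nd4. The stretch covers 31.3% of mt-Co1, 63.6% of mt-Nd4 and 98.99% or more of the others. How reads that fit both places were counted is not stated. The most lopsided pair was mt-Nd3, a core subunit of complex I, and the chromosome 1 gene Gm28438, which differ at 1 base of their shared length, T3C, counted from the first base of mt-Nd3. Over the 12 libraries mt-Nd3 had 201 counts and Gm28438 had 7962, so mt-Nd3 held 2.46% of the pair. The first 60 bases of both transcripts in GENCODE M21 are shown because their single difference, in capitals, lies there.
mt-Nd3: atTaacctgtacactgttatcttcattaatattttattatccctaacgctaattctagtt
Gm28438: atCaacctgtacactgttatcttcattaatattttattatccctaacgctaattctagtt
The level of Gm28438 was 35.6 ± 0.912, 78.3 ± 7.89, 98.98 ± 1.72 and 46.1 ± 1.254 CPM at days 0, 2, 4 and 6 (SD, n = 3 each), highest at day 4. Gm29216, the copy of part of mt-Co1, had 3771 counts, against 632938 at mt-Co1 itself. By contrast, mt-Atp6, mt-Co3 and mt-Nd4l held 56.2%, 61.04% and 62.9% of their pairs. No such copy was found for mt-Nd1, mt-Nd2, mt-Nd5, mt-Nd6, mt-Cytb and mt-Atp8. Only annotated transcripts were searched, so copies outside the annotation, also between the listed chromosome 1 genes, would have been missed. Of the nuclear members, 11 have a near-identical stretch in another gene over more than 20% of their transcript: Atp5f1, Atp5h, Atp5l, Cox5b, Cox7c, Ndufa12, Ndufb4, Ndufs3, Ndufs5, Uqcr11 and Uqcrb. For Ndufs5 the copy BC002163 had 16669 counts, against 12748 at Ndufs5 itself, so counts of these genes are uncertain too.

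Promoter windows of 300 bases, 250 before and 50 after the start, were matched in RefSeq (build GRCm38.p6) for 68 of 84 nuclear symbols. A motif of GCGC, any base and TGCGC, read on either strand, resembles the site of NRF1, a transcription factor known for binding promoters of respiratory chain genes. It was present in 17 of the 68 (25.0%), against 5.19% of the 27025 genes with a promoter in the same collection. That collection outnumbers the 21849 protein-coding genes of the count table. It was not matched to the members in gene type or level, so the shares compare unlike sets. The ETS-type motif CCGGAAGT, on either strand, was present in 5 of 68 (7.35%), against 4.31% of all genes, and 1 member held both. By complex, the NRF1-type motif was found in 2 of 3 members of complex II, 6 of 15 of complex V, 7 of 31 of complex I, 1 of 5 of complex III and 1 of 14 of complex IV. It was present in 13 of 51 members that fell at day 6 against day 0 (25.5%) and in 4 of 17 of the others (23.5%). The windows of Cox6a1 and Atp5c1, which fell, and of Sdhd, which rose, are shown because the same letters occur on both sides of that split, with the motif in capitals.
Cox6a1, chr5:115348909-115349208, minus strand: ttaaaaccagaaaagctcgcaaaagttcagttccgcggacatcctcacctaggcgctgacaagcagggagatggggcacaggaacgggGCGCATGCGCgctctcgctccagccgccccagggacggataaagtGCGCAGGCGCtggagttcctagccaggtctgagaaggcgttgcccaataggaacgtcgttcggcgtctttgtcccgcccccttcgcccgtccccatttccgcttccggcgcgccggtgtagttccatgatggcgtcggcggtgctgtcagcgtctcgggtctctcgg
Atp5c1, chr2:10080383-10080682, minus strand: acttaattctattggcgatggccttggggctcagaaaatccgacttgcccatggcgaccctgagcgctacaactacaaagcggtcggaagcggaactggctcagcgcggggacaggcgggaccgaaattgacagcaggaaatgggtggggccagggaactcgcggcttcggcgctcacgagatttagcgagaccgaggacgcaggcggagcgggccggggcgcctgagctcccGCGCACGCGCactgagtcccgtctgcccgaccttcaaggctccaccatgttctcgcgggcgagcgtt
Sdhd, chr9:50603800-50604099, minus strand: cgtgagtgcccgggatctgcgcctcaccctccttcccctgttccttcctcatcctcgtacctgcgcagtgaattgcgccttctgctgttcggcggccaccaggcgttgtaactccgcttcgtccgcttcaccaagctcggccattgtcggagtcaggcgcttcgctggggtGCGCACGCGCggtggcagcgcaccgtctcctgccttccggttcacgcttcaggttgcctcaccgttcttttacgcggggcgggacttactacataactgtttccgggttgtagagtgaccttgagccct
A match describes these letters and does not show that a factor binds there.

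The nuclear-encoded and mitochondrially encoded genes took different courses. The nuclear-encoded genes together were lower at every later day than at day 0, while the mitochondrially encoded genes together were lower at day 2 and higher at day 4. At day 6 their sum was above day 0 with mt-Co1 counted and overlapped day 0 without it. The summed level of the 85 nuclear genes was 14897, 14856 and 14608 CPM at day 0, 12613, 12339 and 12098 at day 2, 12400.4, 12171 and 12100 at day 4, and 10551, 10266 and 10614 at day 6. All day 6 libraries lay below all others, days 2 and 4 overlapped, and all day 0 libraries lay highest. The 13 mitochondrial genes summed to 16793, 16427 and 16262 CPM at day 0, 13072, 13947 and 13594 at day 2, 24158, 22728 and 22864 at day 4, and 19321, 18884 and 19255 at day 6. No libraries of different days overlapped in this sum, which was lowest at day 2 and highest at day 4. It averaged 16494 CPM at day 0 and 23250 CPM at day 4. Much of that difference lay in mt-Cytb, at 5096 and 9158 CPM. The mitochondrial genes of complex I summed to 6294 and 7169 CPM and those of complex IV to 4973 and 6739 CPM at these days. The sum without mt-Cytb was not computed.

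A single gene, mt-Co1, held much of the day 6 difference. It averaged 7169 CPM at day 6, against 4798 CPM at day 0. With mt-Co1 left out, chosen after the data were seen, the other 12 mitochondrial genes summed to 11696 ± 184, 10788 ± 403, 16655 ± 457 and 11985 ± 211 CPM at days 0, 2, 4 and 6 (SD, n = 3 each). On this TMM scale, day 2 then still lay below day 0 and day 4 above all other days, while days 0 and 6 overlapped. This sum was not computed with another scaling. Its ratio to the nuclear counts, free of scaling, was higher at day 2 (0.822 to 0.906) than at day 0 (0.787 to 0.796). Other RNA classes also moved by day. At days 0, 2, 4 and 6, mitochondrial ribosomal RNA took 0.0538 to 0.0551%, 0.0257 to 0.0279%, 0.0326 to 0.0333% and 0.0523 to 0.05604% of all counts. The gene Gm42418, known to overlap ribosomal RNA sequence, took 1.41 to 1.44%, 0.322 to 0.351%, 1.51 to 1.56% and 2.64 to 2.92%. Both were lowest at day 2, as was the mitochondrial sum, and their part in it was not tested.

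Both sums come from the same libraries, so their ratio does not depend on scaling. The ratio of mitochondrial to nuclear counts was 1.12 ± 0.0109, 1.097 ± 0.0524, 1.902 ± 0.0418 and 1.83 ± 0.0129 at days 0, 2, 4 and 6 (SD, n = 3 each). Days 0 and 2 overlapped, and every library of days 4 and 6 lay above every library of days 0 and 2. With the 7 mitochondrial genes that have a copy left out, an alternative added after the data were seen, the ratio was 0.729, 0.817, 1.28 and 1.07. With mt-Co1 alone left out it was 0.791, 0.874, 1.36 and 1.14. Days 4 and 6 were thus the higher days in all these versions. In both versions with genes left out, every day 2 library also lay above every day 0 library.

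**Figure D1:**
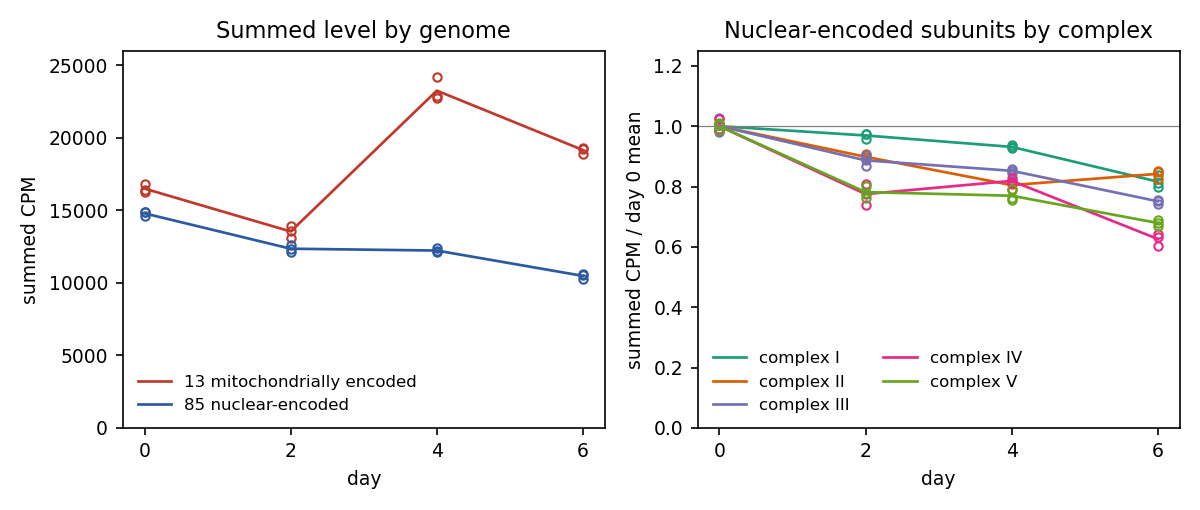
Left, summed level in CPM of the 13 mitochondrially encoded genes (red) and the 85 nuclear-encoded genes (blue) by day. Right, summed level of the nuclear-encoded genes of each complex divided by its own day 0 mean. Circles are libraries (3 a day) and lines join the means. The mitochondrial sum peaks at day 4 (22728 to 24158 CPM), and complexes IV and V end lowest, at 0.626 and 0.679 of their day 0 mean.

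Gene by gene, the nuclear set fell widely but by small amounts. At day 6 against day 0, 62 of 83 tested nuclear genes fell and 9 rose, where 37.5% of all genes tested fell and 39.4% rose. Their median log2 difference was -0.39, against 0.02 for all genes tested. At day 4 against day 0, 51 fell and 14 rose (all genes 36.1% and 37.5%), with a median of -0.25, against 0.01 for all genes. At day 2 against day 0, 45 fell and 14 rose (all genes 33.2% and 34.9%), with a median of -0.15, against 0.02 for all genes. Scaled by library size alone, which moved the median of all genes to 0.15 at day 2 and 0.14 at day 4, 29 fell and 25 rose at day 2, and 41 fell and 22 rose at day 4.

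The nuclear set also fell between successive days. At day 4 against day 2, 39 fell and 16 rose (all genes 24.8% and 25.3%), and at day 6 against day 4, 44 fell and 6 rose (all genes 19.3% and 23.6%). Of the 83, 8 fell at all 3 steps, as did 2.62% of all genes tested: Ndufs6, Cox7a1, Cox7b, Cox7c, Atp5g1, Atp5j2 and both Atp5o IDs. Another 14 fell at the first and second steps and were not called at the last, against 5.73% of all genes, among them Sdha, Sdhb, Uqcrc1 and Cox6a1. Mean levels were highest at day 0 for 50 of 83 nuclear genes and lowest at day 6 for 53, where 36.9% and 26.8% of all genes tested had these extremes. Over the 4 days together, edgeR's F-test called 91 of the 96 members, beside 89.2% of all genes tested. The 5 that were not called were mt-Co3, mt-Atp6, mt-Atp8, Ndufa12 and Uqcrh.

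Of the 13 mitochondrial genes, 7 fell and 1 rose at day 2 against day 0 (all genes 33.2% and 34.9%). At day 4 against day 0, 4 fell and 5 rose (all genes 36.1% and 37.5%), and at day 6 against day 0, 3 fell and 4 rose (all genes 37.5% and 39.4%). The share called was thus near or below that of all genes at days 4 and 6. The riser at day 2 was mt-Nd3, and none rose there with median-ratio or upper-quartile factors. At day 4 against day 2, 7 rose and the others were not called (all genes 25.3% rose), with a median log2 difference of 0.53, against 0.00 for all genes tested. With the counts of the chromosome 1 copies added, chosen after the data were seen, 11 rose there, mt-Nd3, mt-Nd4l, mt-Co2 and mt-Co3 being called as well. At day 6 against day 4, 5 fell and 3 rose (all genes 19.3% and 23.6%), and 1 rose without day 2 replicate 2, day 4 replicate 3 or day 6 replicate 1. With library size alone, 5 fell and 3 rose at day 2 and 3 fell and 7 rose at day 4 against day 0, and 5 fell and 1 rose at day 6 against day 4.

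The mitochondrial part of complex IV was led by mt-Co1, the catalytic core subunit that carries the oxygen-reducing centre (chromosome M, positions 5328 to 6872). It had 4933, 4695 and 4767 CPM at day 0, 2702, 2773 and 2774 at day 2, 6976, 6337 and 6473 at day 4, and 7139.96, 7122 and 7243 at day 6. Day 2 was lowest, day 6 highest, and no 2 days overlapped. The edgeR log2 difference was -0.80 ± 0.0445 at day 2 against day 0 (SE, adjusted p = 8.37e-19) and 1.26 ± 0.0449 at day 4 against day 2 (adjusted p = 2.42e-24). The further difference at day 6 against day 4, 0.12 with an edgeR adjusted p of 0.0253, did not pass when any 1 of 5 libraries was left out, with adjusted p up to 0.15001.

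The companion subunit mt-Co2, which takes electrons from cytochrome c, moved otherwise. It had 141, 166 and 132 CPM at day 0 and 92.3 to 126 CPM in the 9 later libraries, all below day 0. Its edgeR log2 differences from day 0 were -0.59, -0.39 and -0.50 at days 2, 4 and 6. The call at day 4 (edgeR adjusted p = 0.0259) did not pass with library size alone (adjusted p = 0.116) or with no filter on low counts (adjusted p = 0.0597). It was also lost without day 0 replicate 2, day 4 replicate 2 or day 4 replicate 3, with edgeR adjusted p up to 0.0894. For mt-Co3, the other mitochondrial subunit of complex IV, levels were 21.98 to 42.2 CPM, and all days overlapped. Both genes have a chromosome 1 copy over nearly their whole length.

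Cytochrome b, mt-Cytb, is the only mitochondrially encoded subunit of complex III. It held 34.5% of the mitochondrial members' counts on average and 5450.01 CPM per kb of exon, above mt-Co1 at 3449 CPM per kb. It had 5127, 5256 and 4905 CPM at day 0, 5199, 5824 and 5478 at day 2, 9698, 8705 and 9070.2 at day 4, and 5398, 4825 and 5331 at day 6. All 3 day 4 libraries lay above the other 9, and days 0, 2 and 6 overlapped. At day 2 against day 0 mt-Cytb differed by 0.11 on the log2 scale and was not called. It was called higher there with no filter on low counts (edgeR adjusted p = 0.000203) or library size alone (adjusted p = 1.9e-05). The 6-library fit called it too (edgeR adjusted p = 0.0346). The edgeR log2 difference was 0.85 ± 0.0506 at day 4 against day 0 (SE, adjusted p = 7.05e-18) and -0.82 ± 0.0506 at day 6 against day 4 (adjusted p = 2.08e-16). At day 6 against day 0 it differed by 0.02 and was not called, whereas mt-Co1 rose by 0.58; the difference between the genes was not tested.

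The mitochondrial subunits of complex I did not share a course. mt-Nd1, part of the membrane arm at the ubiquinone site, had 1599, 1588 and 1517 CPM at day 0, 1562, 1669 and 1627 at day 2, 2599, 2476 and 2543 at day 4, and 2153, 2118 and 2159 at day 6. Days 4 and 6 lay above days 0 and 2, which overlapped, and the edgeR log2 difference was 0.70 at day 4 and 0.45 at day 6 against day 0. mt-Nd2, another membrane-arm subunit, averaged 1221, 1014, 1491 and 1655 CPM at days 0, 2, 4 and 6, and was lower at day 2 and higher at days 4 and 6 than at day 0. Its fall at day 2 did not pass with library size alone (edgeR adjusted p = 0.0742). Its call at day 6 against day 4, where libraries overlapped, was lost when any 1 of 7 libraries was left out, with adjusted p up to 0.228.

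mt-Nd5, a proton-pumping subunit, went the other way. It had 2855, 2753 and 2748 CPM at day 0, 1804, 1878 and 1878 at day 2, 2322, 2362 and 2332 at day 4, and 2085, 2080.2 and 2043 at day 6. It stayed below day 0 in all 9 later libraries, with edgeR log2 differences of -0.59, -0.25 and -0.43 at days 2, 4 and 6. mt-Nd4, a further pumping subunit, averaged 628, 486, 735 and 514 CPM, and its libraries overlapped between day 0 and days 4 and 6. Its fall at day 2 (edgeR log2 -0.37, adjusted p = 0.0421) did not pass with no filter on low counts (adjusted p = 0.139), with library size alone (adjusted p = 0.162) or in the 6-library fit (adjusted p = 0.0736). It was also lost when any 1 of 8 libraries was left out, with edgeR adjusted p up to 0.137, and its log2 difference was -0.24 without day 0 replicate 3.

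mt-Nd6 is the sole mitochondrial protein gene encoded on the opposite strand from the others. It had 77.4, 70.6 and 75.7 CPM at day 0, 34.6, 39.4 and 37.7 at day 2, 53.2, 53.1 and 54.8 at day 4, and 115, 119 and 121 at day 6. The 4 days did not overlap, with day 2 lowest and day 6 highest. The edgeR log2 difference was -1.0 ± 0.0591 at day 2 against day 0 (SE, adjusted p = 5.32e-18) and 1.14 ± 0.0542 at day 6 against day 4 (adjusted p = 7.02e-20). Among the mitochondrial genes this was the largest rise at the last step. The share of counts at Gm42418 was also lowest at day 2 and highest at day 6. The share of mitochondrial ribosomal RNA was lowest at day 2 as well. Their part in the mt-Nd6 level was not tested. Whether reads were counted by strand is not stated, and the end of mt-Nd6 overlaps that of mt-Nd5, so reads from the opposite strand cannot be told apart.

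The remaining mitochondrial genes were low or variable. mt-Nd4l, a small membrane-arm subunit, had 18.9, 22.3 and 10.1 CPM at day 0 and 4.92 to 9.08 CPM in the later libraries, with edgeR log2 differences of -1.54, -1.06 and -1.20 at days 2, 4 and 6. mt-Nd3 had 0.755 to 2.83 CPM throughout, and was highest at day 4 (log2 1.04 against day 0, edgeR adjusted p = 0.00381). Its call at day 2 against day 0 (log2 0.71, adjusted p = 0.0485 in edgeR) did not pass when any 1 of 6 libraries was left out, with adjusted p up to 0.218. Of the ATP synthase subunits, mt-Atp6, the proton channel subunit, had 76.3 to 189 CPM, and mt-Atp8, a small stalk subunit whose gene overlaps that of mt-Atp6, had 33.9 to 104 CPM. Neither was called in any comparison. The highest value of mt-Atp8 came from day 2 replicate 1, whose fellow libraries had 34.8 and 33.9 CPM. Without that library, its edgeR log2 difference at day 4 against day 2 was 0.60 (adjusted p = 0.0231), against -0.16 with it.

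**Figure D2:**
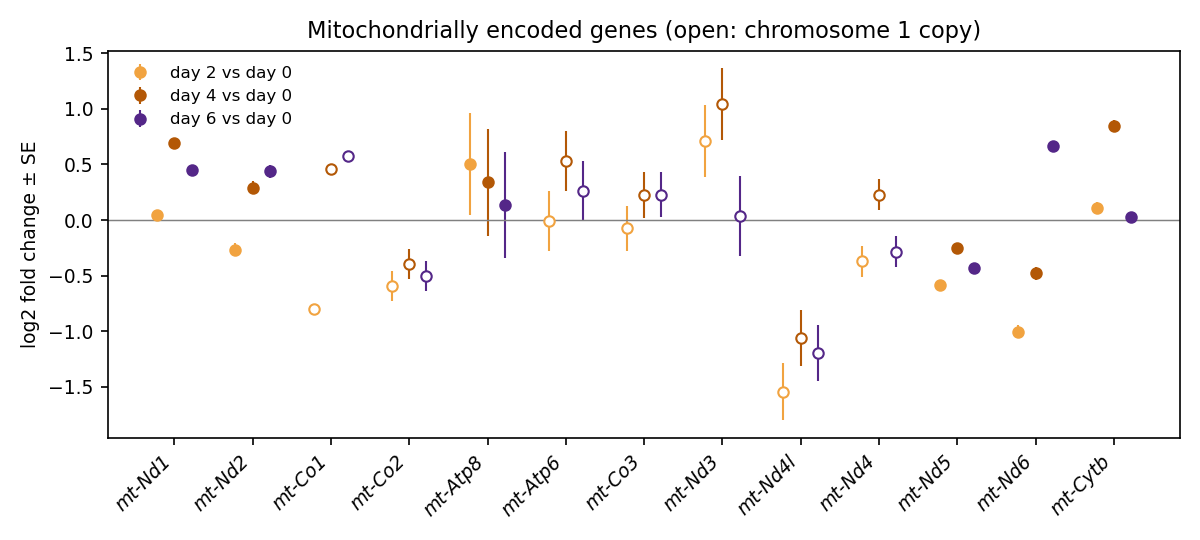
Log2 fold change against day 0, with its SE, of each of the 13 mitochondrially encoded genes in their order along the mitochondrial genome, at days 2, 4 and 6. Open circles are genes with a near-identical copy on chromosome 1. mt-Cytb stands high at day 4 (0.85), mt-Nd6 lies at -1.0 at day 2 and at 0.66 at day 6, and mt-Nd5 stays below 0 at all 3 days.

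Complex I has the most nuclear subunits in the set. Of 35, 23 fell and 5 rose at day 6 against day 0 (all genes 37.5% and 39.4%), with a median log2 difference of -0.32. At day 2 against day 0, 14 fell and 10 rose, near the shares of all genes (33.2% and 34.9%), with a median of -0.05. Its summed level was 3335 ± 35.3, 3232 ± 33.8, 3106 ± 21.97 and 2722 ± 65.1 CPM at days 0, 2, 4 and 6 (SD, n = 3 each), and the day 6 libraries lay below all others.

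Ndufa1, a small membrane-arm subunit needed for complex I assembly, rose. It had 61.9, 63.8 and 60.6 CPM at day 0, 94.4, 90.5 and 106 at day 2, 113, 104 and 121 at day 4, and 89.4, 88.9 and 87.4 at day 6. All later libraries lay above all of day 0, and the edgeR log2 differences from day 0 were 0.64, 0.85 and 0.51 at days 2, 4 and 6. Ndufs7, a core subunit that holds an iron-sulfur cluster, averaged 19.9, 29.1, 26.02 and 28.6 CPM, and Ndufb11, which like Ndufa1 is X-linked, averaged 35.5, 51.3, 51.3 and 42.3 CPM. Both rose at each later day against day 0.

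Ndufc2, a membrane-arm subunit, peaked at day 4. It had 53.8, 48.6 and 53.2 CPM at day 0, 57.8, 67.5 and 51.2 at day 2, 123, 116 and 107 at day 4, and 57.8, 55.6 and 59.9 at day 6. The day 4 libraries stood above the other 9. The edgeR log2 difference was 0.97 ± 0.0715 at day 4 against day 2 (SE, adjusted p = 7.22e-11) and -1.0 ± 0.07296 at day 6 against day 4 (adjusted p = 1.04e-10). Its call at day 2 against day 0 (log2 0.18) was lost when any 1 of 9 libraries was left out, with edgeR adjusted p up to 0.342. Ndufc1, another small membrane-arm subunit, averaged 35.2, 33.9, 21.1 and 18.1 CPM and fell by 0.66 on the log2 scale at day 4 against day 2. Ndufa2, an accessory subunit, averaged 81.01, 111, 75.4 and 81.3 CPM, and of the later days only day 2 was called against day 0.

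Complex II, succinate dehydrogenase, links the citric acid cycle to the respiratory chain, and its 4 genes split. Sdhb, the iron-sulfur subunit, had 245, 249.7 and 239 CPM at day 0, 227, 212 and 221 at day 2, 162, 161 and 161 at day 4, and 171, 149 and 164 at day 6. Days 4 and 6 lay together below both earlier days, and the edgeR log2 difference was -0.60 ± 0.0470 at day 6 against day 0 (SE, adjusted p = 2e-14). Its fall at day 2 (log2 -0.15) did not pass with library size alone (edgeR adjusted p = 0.721). Sdhd, a membrane anchor, had 61.7, 53.6 and 57.3 CPM at day 0, 59.1, 63.9 and 64.5 at day 2, 91.1, 91.7 and 81.9 at day 4, and 94.8, 100.4 and 95.3 at day 6. Here days 4 and 6 lay above days 0 and 2, with an edgeR log2 difference of 0.75 ± 0.0586 at day 6 against day 0 (SE, adjusted p = 1.71e-14). Sdha, the flavoprotein subunit, fell by 0.33 on the log2 scale at day 6 against day 0, and Sdhc, the other anchor, differed by -0.05 and was not called.

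Complex III passes electrons from ubiquinol to cytochrome c. Of its 8 nuclear genes in the set, 6 fell and 1 rose at day 6 against day 0 (all genes 37.5% and 39.4%). Cyc1, outside the rule, averaged 215, 236, 221 and 210 CPM at days 0, 2, 4 and 6. The core proteins Uqcrc1 and Uqcrc2 went in opposite directions. Uqcrc1 had 241, 248 and 231 CPM at day 0, 158, 163 and 152 at day 2, 141, 145 and 144 at day 4, and 133, 128 and 141 at day 6. All later libraries lay below day 0, with edgeR log2 differences of -0.61, -0.74 and -0.84 at days 2, 4 and 6. Uqcrc2 had 73.99, 70.5 and 67.6 CPM at day 0, 102, 101 and 114 at day 2, 90.7, 86.9 and 87.98 at day 4, and 87.1, 85.3 and 82.2 at day 6. All its later libraries lay above day 0, with log2 differences of 0.58, 0.32 and 0.26. Uqcrq, a small accessory subunit, averaged 151, 153, 184 and 118 CPM, and fell by 0.64 on the log2 scale at day 6 against day 4.

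Complex IV, cytochrome c oxidase, kept the smallest share of its day 0 nuclear level at days 2 and 6. At day 4 its share was 0.819, above complex II at 0.805 and complex V at 0.769. Of 18 tested genes of complex IV, 14 fell and 1 rose at day 2 against day 0 (all genes 33.2% and 34.9%). At day 6 against day 0, 14 fell and 2 rose (all genes 37.5% and 39.4%). The medians were -0.42 at day 2 and -0.61 at day 6, against 0.02 for all genes at both. Its summed level was 3881, 3743 and 3764 CPM at day 0, 3069.8, 2946 and 2807 at day 2, 3146, 3084 and 3092 at day 4, and 2407, 2289 and 2434 at day 6. Day 0 lay highest and day 6 lowest, without overlap. The ratio of mitochondrial to nuclear counts within complex IV was 1.31 ± 0.004497, 0.979 ± 0.0542, 2.17 ± 0.0886 and 3.08 ± 0.08998 at days 0, 2, 4 and 6 (SD, n = 3 each). The same ratio was 1.89, 1.55, 2.31 and 2.39 for complex I and 4.21, 5.13, 8.88 and 5.701 for complex III. No test was made between complexes.

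Cox4i1, its most abundant nuclear subunit, had 1320.5, 1269.8 and 1294 CPM at day 0, 1202, 1155 and 913 at day 2, 1494, 1399.7 and 1418 at day 4, and 969, 873 and 976 at day 6. Day 4 lay highest, and day 6 lay below days 0 and 4 and overlapped day 2. The edgeR log2 difference was -0.46 ± 0.0861 at day 6 against day 0 (SE, adjusted p = 0.000379), and its call at day 2 (log2 -0.25) did not pass with library size alone (adjusted p = 0.244) or without day 0 replicate 1 (adjusted p = 0.05598). Cox6a1, a regulatory subunit, had 677, 665 and 645 CPM at day 0, 446, 360.4 and 504 at day 2, 312, 335 and 306 at day 4, and 319, 364 and 293 at day 6. Every later library lay below day 0, and the log2 differences were -0.60, -1.06 and -1.03 at days 2, 4 and 6. Cox6c, a further nuclear subunit, averaged 260.1, 163, 161 and 106 CPM and had a log2 difference of -1.29 at day 6 against day 0. Cox8a, the common isoform of the smallest subunit, averaged 124, 75.6, 71.9 and 65.05 CPM.

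In complex V, 17 of 18 nuclear genes, both Atp5o IDs included, fell at day 6 against day 0 by edgeR, where 37.5% of all genes fell. The other gene, Atp5g3, differed by -0.01 on the log2 scale and was not called. Atp5b, the catalytic beta subunit and the nuclear member with the most counts at day 0, had 2645, 2686 and 2521 CPM at day 0, 1768, 1754 and 1635 at day 2, 2042, 1863 and 1851 at day 4, and 1670.2, 1539 and 1607 at day 6. Day 0 lay above all other days, and the edgeR log2 difference at day 6 against day 0 was -0.70 ± 0.0470 (SE, adjusted p = 1.3e-16). Atp5a1, the alpha subunit of the same catalytic head, averaged 1002, 809, 643 and 706 CPM, and was higher at day 6 than at day 4 (log2 0.13, edgeR adjusted p = 0.0121). Atp5k, a small membrane subunit, averaged 120, 160.1, 109 and 98.5 CPM, was higher at day 2 than at day 0 and fell by 0.55 on the log2 scale at day 4 against day 2.

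Atp5g1, Atp5g2 and Atp5g3 encode the same mature c subunit of the ATP synthase ring behind different import sequences. Atp5g1 had 56.3, 57.4 and 55.95 CPM at day 0, 38.6, 35.3 and 38.9 at day 2, 31.01, 26.5 and 28.3 at day 4, and 25.2, 25.2 and 22.7 at day 6. Each day lay below the one before it, with an edgeR log2 difference of -1.21 ± 0.0717 at day 6 against day 0 (SE, adjusted p = 3.43e-18). Its last step, -0.23 at day 6 against day 4, did not pass without day 4 replicate 1 (edgeR adjusted p = 0.159) or without day 6 replicate 3 (adjusted p = 0.0959). Atp5g3 averaged 141, 143, 179.9 and 139 CPM and Atp5g2 40.6, 44.2, 36.5 and 34.3 CPM. The rise of Atp5g3 at day 4 against day 0 (log2 0.35, edgeR adjusted p = 0.0149) was lost without day 0 replicate 3 (adjusted p = 0.0506) or day 4 replicate 1 (adjusted p = 0.0507). Per kb of exon, the mean level was 7.49 CPM for Atp5g1 and 69.1 CPM for Atp5g3. These values divide by all annotated exons together, 4912 bases for Atp5g1 and 2181 for Atp5g3, so part of the gap comes from annotated length.

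**Figure D3:**
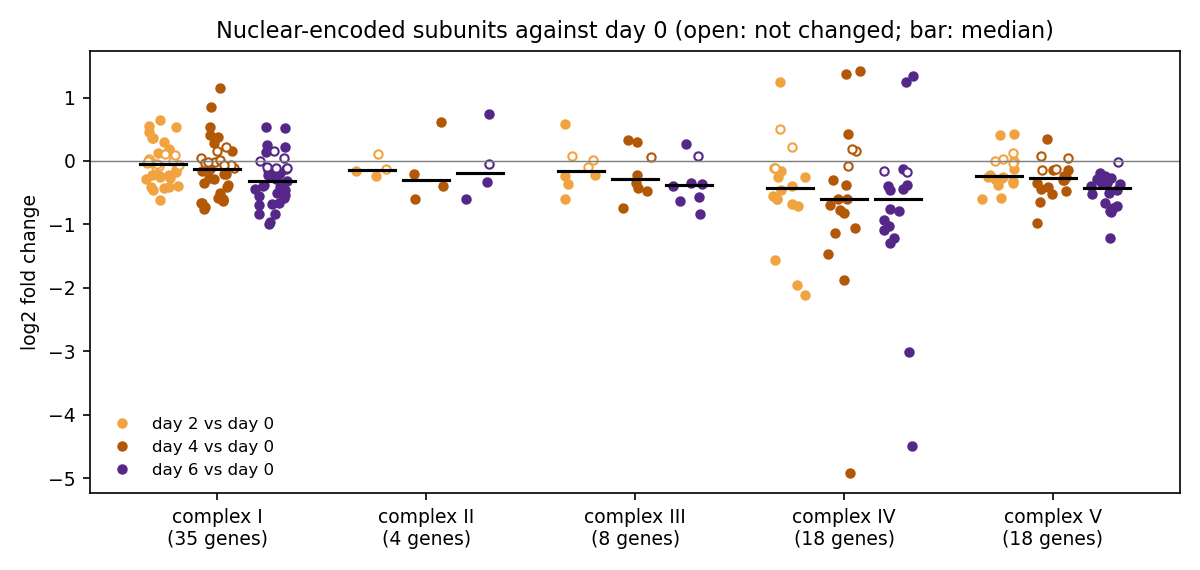
Log2 fold change against day 0 of the 83 tested nuclear-encoded genes, by complex, at days 2, 4 and 6. Each point is a gene, filled where called changed (adjusted p under 0.05 in edgeR), and the bar is the median. The day 6 medians lie below 0 in all 5 complexes. Complex IV reaches furthest down, to -4.92 at day 4 and -4.49 at day 6 (Ndufa4l2, with 7 and 11 counts at these days).

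The largest falls in the set were in alternative isoforms. Cox7a1, the heart and muscle isoform of complex IV subunit 7a, had 33.9, 35.9 and 42.2 CPM at day 0, 26.2, 25.03 and 24.6 at day 2, 8.98, 10.2 and 11.6 at day 4, and 4.63, 4.42 and 4.72 at day 6. Each day lay wholly below the one before it. At day 6 against day 0 the edgeR log2 difference was -3.02 ± 0.115 (SE, adjusted p = 1.88e-24). Its common partner Cox7a2 had 79.6, 64.5 and 66.2 CPM at day 0, 66.2, 68.1 and 61.6 at day 2, 92.5, 94.7 and 95.9 at day 4, and 58.99, 45.6 and 54.8 at day 6, highest at day 4. Of the 2 genes' level per kb of exon, Cox7a1 made up 48.5 ± 5.09, 40.6 ± 1.09, 16.1 ± 1.497 and 13.3 ± 1.23% at days 0, 2, 4 and 6 (SD, n = 3 each). Cox7a2l, a relative that joins complexes into supercomplexes, averaged 87.9, 74.01, 68.1 and 80.5 CPM.

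Ndufa4l2 is a hypoxia-inducible relative of Ndufa4, which is now counted as a complex IV subunit. Ndufa4l2 had 7.11, 8.91 and 7.96 CPM at day 0, 1.89, 1.36 and 2.27 at day 2, 0.2898, 0.0959 and 0.425 at day 4, and 0.373, 0.323 and 0.315 at day 6. Days 4 and 6 overlapped and lay below day 2, which lay below day 0. In edgeR its log2 difference was -2.12 ± 0.202 at day 2 (SE, adjusted p = 6.73e-12) and -4.49 ± 0.295 at day 6 against day 0 (adjusted p = 7.78e-17). It had 279 counts over the 12 libraries. Ndufa4 itself averaged 71.02, 82.5, 80.3 and 62.3 CPM and was not called in any comparison with day 0.

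Cox6b2 and Cox4i2 were also lower at day 2. Cox6b2, the testis isoform of subunit 6b, had 36.9, 31.8 and 28.3 CPM at day 0, 8.47, 8.66 and 7.99 at day 2, 10.3, 11.4 and 14.2 at day 4, and 15.8, 15.6 and 14.3 at day 6. No 2 days overlapped, with day 2 lowest. It fell by 1.95 at day 2 against day 0 on the log2 scale and rose by 0.49 at day 4 against day 2, and the rise of 0.38 at day 6 against day 4 was lost without day 4 replicate 1 (edgeR adjusted p = 0.0863). Its share of the pair with Cox6b1, per kb, was 17.1, 5.65, 8.55 and 11.2% at days 0, 2, 4 and 6. Cox4i2, the lung and low-oxygen isoform of subunit 4, had 7.11, 6.03 and 5.68 CPM at day 0, 2.65, 1.52 and 2.18 at day 2, 2.801, 3.55 and 1.98 at day 4, and 5.53, 4.53 and 6.92 at day 6. Day 6 overlapped day 0, and it rose by 0.98 on the log2 scale at day 6 against day 4 (edgeR adjusted p = 0.000216). Its mean share of the pair with Cox4i1, per kb, was 0.943, 0.386, 0.379 and 1.16%.

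Of the 17 isoform genes tested, common partners included, 2 rose and 12 fell at day 6 against day 0 (all genes 39.4% and 37.5%). In the whole nuclear set, 62 of 83 fell and 9 rose there. The 2 isoform genes that rose were low. Cox7b2, a testis-enriched relative of Cox7b, had 1.39 to 2.14 CPM at day 0 and 3.902 to 5.56 CPM in the later libraries, without overlap, and its edgeR log2 difference was 1.34 ± 0.237 at day 6 against day 0 (SE, adjusted p = 3.55e-06). Cox7b had 153 CPM at day 6, against 265 CPM at day 0. Cox8c, known from testis, averaged 1.49, 2.104, 3.902 and 3.52 CPM, and rose at days 4 and 6 against day 0. Cox6a2, the muscle isoform of subunit 6a, had 39 counts in all and Cox8b, the muscle isoform of subunit 8, had 2.

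Markers of the tissues that use these isoforms were listed for comparison. Of 10 muscle markers, 6 were tested, and the summed level of all was 31.4, 25.2, 28.3 and 40.2 CPM at days 0, 2, 4 and 6, with 3 higher and 3 lower at day 6 against day 0. Among them, Actc1, cardiac actin, reached 8.82 CPM at day 6, against no count at day 0, while Tnni3, cardiac troponin I, had 3.04 CPM at day 6, against 9.86 CPM at day 0, Ckm was at 0 at day 2 and Myl2 at day 4. Germ cell markers summed to 83.4, 259, 406 and 261 CPM, with 5 of 6 tested higher at day 6 against day 0 and the other not called, chiefly from Dazl at 38.98, 189.8, 308 and 169 CPM, and with Prm1 and Acrv1 at 0 counts throughout. Their part in the levels of Cox7a1, Cox6b2, Cox7b2 and Cox8c was not tested.

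**Figure D4:**
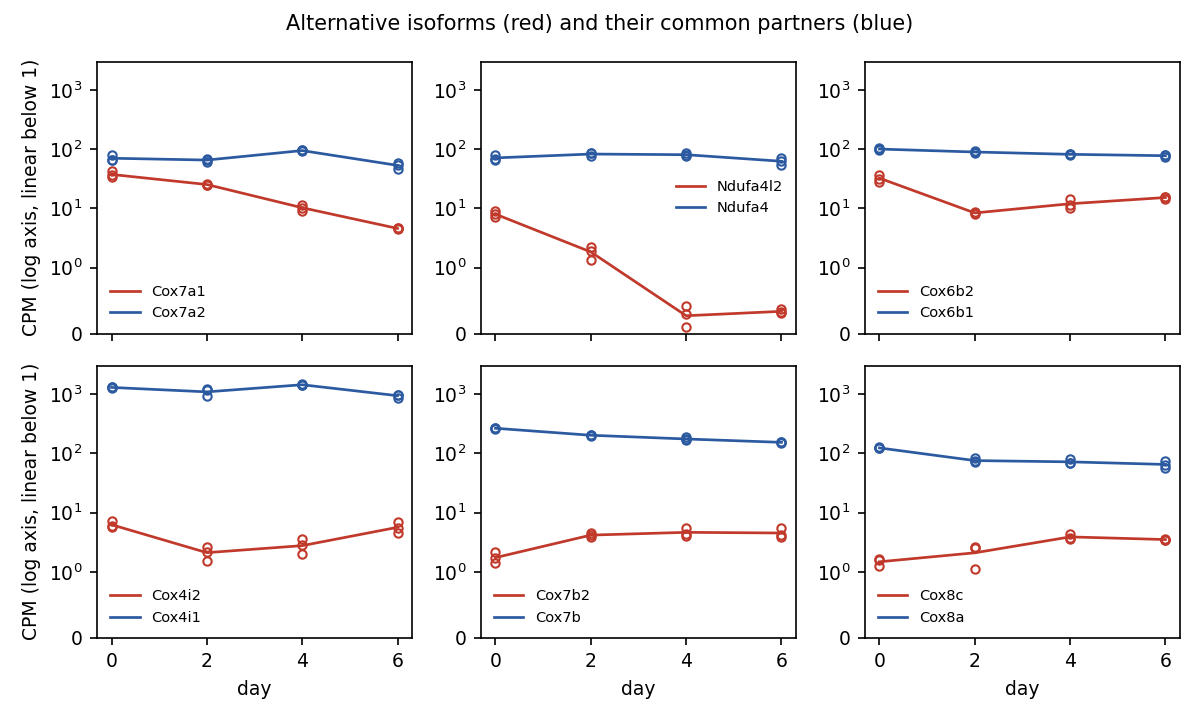
CPM of 6 alternative isoforms (red) and their common partners (blue) by day, on a log axis that is linear below 1. Circles are libraries and lines join the means. Cox7a1 and Ndufa4l2 end at 4.59 and 0.337 CPM at day 6, Cox6b2 is lowest at day 2, and Cox7b2 and Cox8c lie higher at day 6 than at day 0.

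Other genes of the pathway came from lists written from general knowledge, and their counts at day 6 against day 0 stand beside 37.5% of all genes tested that fell, 39.4% that rose and a median of 0.02. Of 32 tested genes for mitochondrial DNA maintenance, transcription and RNA processing, 21 fell and 4 rose at day 6 against day 0, with a median log2 difference of -0.36. Tfam, which packages and helps transcribe mitochondrial DNA, averaged 155, 103, 107 and 101 CPM, and Lrpprc, which stabilises mitochondrial mRNA, averaged 109, 87.96, 80.99 and 63.7 CPM at days 0, 2, 4 and 6. Both fell at day 4 against day 0 (log2 -0.53 and -0.42), the day at which the mitochondrial sum was highest. The tRNA processing enzymes Trmt10c and Elac2 fell at day 6 against day 0 (log2 -0.68 and -0.69).

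Of 19 tested regulators of the respiratory chain, 10 fell and 6 rose at day 6 against day 0 (all genes 37.5% and 39.4%), with a median of -0.35. Esrrb, an orphan nuclear receptor that is also an ES cell factor, averaged 306, 71.4, 28.1 and 17.9 CPM. Gabpa, an ETS factor known for respiratory gene promoters, averaged 222, 134, 115 and 114 CPM, and the deacetylase Sirt1 averaged 78.98, 48.8, 38.1 and 27.8 CPM. Nfe2l2, an antioxidant response factor, rose at all 3 later days against day 0 (log2 0.60, 0.89 and 0.97). Nrf1, chosen after its values were seen, differed by -0.07 and -0.12 at days 2 and 4, not called, and fell by 0.35 on the log2 scale at day 6. Ppargc1a, a coactivator of mitochondrial biogenesis also chosen after its values were seen, averaged 0.161, 1.08, 3.85 and 4.29 CPM.

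Of 18 citric acid cycle and pyruvate dehydrogenase genes, 11 fell and 3 rose at day 6 against day 0 (all genes 37.5% and 39.4%), with a median of -0.22. Idh3a, of the NAD-dependent isocitrate dehydrogenase, had 66.2 CPM at day 6, against 172 CPM at day 0, while Pdha1, a pyruvate dehydrogenase subunit, had 233 CPM, against 241 CPM, and was not called. Among 22 import and membrane genes, 16 fell and 4 rose, with a median of -0.32. Phb, a prohibitin scaffold of the inner membrane, had 121 CPM at day 6, against 247 CPM at day 0, and Vdac1, an outer-membrane channel, had 172 CPM, against 283 CPM. Of the 50 assembly factors, 18 fell and 15 rose, both below the shares of all genes (37.5% and 39.4%), with a median of -0.04. Pet100, a complex IV assembly factor, averaged 64.5, 74.4, 128 and 92.2 CPM, and Ecsit, a complex I assembly factor, averaged 31.8, 17.1, 14.7 and 12.4 CPM at days 0, 2, 4 and 6.

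Of 18 electron carrier genes, 8 fell and 4 rose at day 6 against day 0, the share that fell lying near that of all genes (37.5%) and the share that rose below it (39.4%), with a median of -0.08. Cycs, somatic cytochrome c, averaged 189, 177, 277 and 107 CPM, highest at day 4. Etfdh, which passes electrons from fatty acid oxidation to ubiquinone, had 47.5 CPM at day 6, against 21.01 CPM at day 0. Of 9 tested genes for uncoupling and the choice between lactate and pyruvate oxidation, 7 fell and 2 rose, with a median log2 difference of -1.41. Pdk1, a kinase that inhibits pyruvate dehydrogenase, averaged 147, 28.1, 25.3 and 28.5 CPM. Ldhb, a lactate dehydrogenase subunit, averaged 363, 90.2, 70.1 and 62.3 CPM and its partner Ldha 819, 338, 620.3 and 558 CPM. Ucp2, an inner-membrane carrier, averaged 127, 74.96, 49.96 and 47.9 CPM at days 0, 2, 4 and 6.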

How the data were processed

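RNA-seq of polyadenylated RNA was deposited by the authors as raw counts per gene for 12 libraries, 3 a day. The submitters' processing notes name FastQC 0.11.7, HISAT2 2.1.0, featureCounts 2.0.1, DESeq2 and the mm10 genome. How strand and reads with several positions were handled is not given in the sources used here, and either can move counts between a gene and its copies or antisense neighbours.

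The deposited counts, checked to be whole, were fitted with edgeR 4.0.16 (R 4.3.3). Genes were kept by filterByExpr, scaled by TMM and fitted together with the robust quasi-likelihood method, each day having its own coefficient. Tests were two-sided, with Benjamini-Hochberg adjustment over 16468 genes, and the SE were recovered from the test statistic. CPM are counts per 1e+06 TMM-scaled counts. Coordinates and exon lengths come from GENCODE M21, copies from BLAST+ 2.17.0, motifs from Python 3.11.15. Levels and shares per kb use all annotated exons of a gene together, which can exceed the length of the RNA present. The procedure was tested on simulated counts in which few genes were changed, in both directions. That setting is unlike these data and does not test the scaling when most genes move.

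The members, gene lists and tests were chosen with earlier results of these data known. Named are all 13 mitochondrial genes, the listed isoforms, the untested members and, per comparison, the 4 largest rises and falls among changed members that reach 5 CPM and whose days do not overlap. Added are the 6 members with the smallest F-test p, the most abundant and most significant member of each complex, and up to 4 genes of each list by F-test p. Other members (Sdha, Sdhc, Atp5c1, and those listed by pattern) were chosen after their values were seen.

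Alternatives were median-ratio, upper-quartile and library-size scaling, 2 other filters, DESeq2 1.42.0, limma-voom (limma 3.58.1), 6-library fits, a replicate block, adjusted p under 0.01, library sizes without mitochondrial genes and Gm42418, and each library left out. Adding the copies' counts and leaving out mitochondrial genes with a copy or mt-Co1 alone were chosen after seeing the data. Library totals set the counting precision.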

Additional observations from a re-analysis of the deposited data

How the results depend on the processing

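Of the named genes' differences, 1 changed sign with a call: mt-Atp8 at day 4 against day 2 ran between -0.42 and 0.60 with each library left out, and was called at 0.60, without day 2 replicate 1. The number of mitochondrial genes that rose at day 2 against day 0, 1 in the analysis above, was 0 with median-ratio or upper-quartile factors, the replicate block, adjusted p under 0.01, DESeq2 or limma-voom, 3 with library size alone and 2 in the 6-library fit, and 0 to 2 with each library left out in turn (0 without replicates 1 or 3 of day 0, 2 or 3 of day 2, or 3 of day 6). The number that rose at day 6 against day 4, 3 above, was 1 with upper-quartile factors, library size alone, adjusted p under 0.01 or the 6-library fit, and 1 to 3 with each library left out. Library size alone gave 25 higher and 29 lower nuclear genes at day 2 and 22 higher at day 4 against day 0, and over all genes 7053 higher and 4409 lower at day 2. It gave nuclear sums of 13884, 12712 and 12534 CPM at days 0, 2 and 4 and a mitochondrial sum of 15487 at day 0. Upper-quartile factors gave a nuclear sum of 14952 at day 0 and a mitochondrial sum of 18835 at day 6. With mitochondrial genes and Gm42418 out of the library sizes, nuclear sums were 15311, 12779, 12656 and 10847 CPM and mitochondrial sums 17079, 14008, 24072 and 19830 CPM, in the same order of days. The nuclear sum at day 0 was 14706 to 14988 with each library left out, highest without day 0 replicate 3. Adding the copies' counts, chosen after seeing the data, gave 11 mitochondrial genes higher at day 4 against day 2, where 7 were above, and nuclear sums of 15042 and 12431 CPM at days 0 and 4. Leaving out mitochondrial genes with a copy gave mitochondrial sums of 10786, 10082, 15633 and 11216 CPM and ratios of 0.729, 0.817, 1.28 and 1.07, and leaving out mt-Co1 alone gave sums of 11696, 10788, 16655 and 11985 CPM and ratios of 0.791, 0.874, 1.36 and 1.14. The replicate numbers did not pair libraries: same-numbered libraries had correlations of -0.038 to 0.034, and the best match had the same number in 11 of 36 combinations. With the replicate block, the calls of mt-Nd3 (adjusted p = 0.0533) and mt-Nd4 (adjusted p = 0.0751) at day 2 and of Coq7 at day 4 against day 0 (adjusted p = 0.0531) did not pass in edgeR, and nuclear counts at day 6 against day 0 were 61 lower and 9 higher. The causes of these differences were not tested.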
